A study of Mus musculus with 10 samples.

Results

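The cyclins, cyclin-dependent kinases (CDKs) and CDK inhibitors that govern the G1 phase were examined in the dorsal telencephalon of mouse embryos, the tissue that forms the cerebral cortex. The members were listed by gene symbol: 3 D-type cyclins (Ccnd1, Ccnd2, Ccnd3), their kinases Cdk4 and Cdk6, the E-type cyclins Ccne1 and Ccne2 with their kinase Cdk2, and the inhibitors Cdkn1b and Cdkn2c. All 10 members were found among the 43629 gene identifiers of the count tables, and all 10 were among the 17039 genes that passed the filter on low counts.

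Total RNA was sequenced in 10 samples of C57BL/6 embryos at E14.5, 5 controls and 5 Dot1l-cKO. The controls carried no Cre and had the genotype Dot1l-cKO f/+, that is, 1 conditional Dot1l allele. The Dot1l-cKO embryos carried Cre on 1 allele (Cre/+) with Dot1l-cKO f/f. Every Dot1l-cKO embryo and no control carried Cre, so an effect of the Cre allele and an effect of Dot1l loss cannot be told apart in this comparison. DOT1L is the enzyme that methylates histone H3 at lysine 79, a mark found over transcribed genes.

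In G1, mitogens raise D-type cyclins, which bind CDK4 or CDK6 and begin to phosphorylate the retinoblastoma protein. This releases E2F factors, which switch on E-type cyclins and S-phase genes, and cyclin E with CDK2 completes the step. CDKN1B restrains cyclin E and CDK2, while CDKN2C blocks CDK4 and CDK6. In the embryonic cortex the length of G1 in neural progenitors is known to bear on whether daughter cells keep dividing or become neurons.

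Total counts per sample ranged from 54202349 to 66556034, and the lowest count of any member in any sample was 690, for Ccne1. The deposited normalised tables name their columns with a leading number, not explained in the sources used here and called the header number, shared by both genotypes at each replicate number. In the 4 samples with header number 57 (replicates 2 and 3 of both groups) mitochondrial ribosomal RNA held 0.0471% to 0.492% of counts, against 5.79% to 10.9% in the other 6. Levels are given as CPM, counts scaled to a library total of 1000000, in the order of the replicate numbers. Dot1l ranged from 31.4 to 41.5 CPM over the controls. The Dot1l-cKO samples 1 to 5 had 42.3, 20.1, 39.6, 43.4 and 51.7 CPM of Dot1l. Whole-gene counts did not pass the test (log2 fold change 0.08 ± 0.20 SE, edgeR adjusted p = 0.864). A count over the whole gene can include exons outside the deleted part, so it does not check the labels.

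The tissue label was checked against marker lists. Emx2 and Pax6, which mark cortical progenitors, Eomes, which marks intermediate progenitors, and Neurod6 and Tbr1, which mark cortical neurons, were all expressed. Summed levels of the 10 progenitor markers spanned 2951 to 3619 CPM over controls, and 3321 to 3639 CPM over Dot1l-cKO. Of these 10 markers, 8 had a negative log2 fold change, and 1 was called lower and 2 higher. Pax6 was lower (120.9 and 94.1 CPM in control and Dot1l-cKO means, log2 fold change -0.36, edgeR adjusted p = 0.0294). Vim (919.0 and 1323 CPM, 0.53, edgeR adjusted p = 0.00451) and Slc1a3 (163.9 and 220.1 CPM, 0.43, edgeR adjusted p = 0.00447), both of radial glia, were higher. Of 9 neuron markers 1 was called higher, Gap43 (0.46, edgeR adjusted p = 0.0161), and none lower. Ventral telencephalon markers moved with genotype: the summed level of 8 genes was 54.7 to 279.8 CPM in controls and 5.36 to 81.7 CPM in Dot1l-cKO. All 7 of them that were tested had a negative log2 fold change, 1 of them called (Lhx6), and Nkx2-1 was below the filter. Microglia markers moved the other way, at 28.7 to 49.1 CPM in controls and 57.4 to 85.4 CPM in Dot1l-cKO, with 5 of 6 called higher. The part of these marker differences in the results on the G1 genes was not tested.

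Among the G1 members, Ccnd1, Cdk6 and Cdkn1b were lower in Dot1l-cKO, and the other 7 did not pass the test. Of the 10 members 3 were called lower at an adjusted p under 0.05, where 1.44% of all genes tested were called lower. The members were chosen with earlier results of these data known, so this count does not test whether they moved more than other genes. No member was called higher, where 5.67% of all genes were; in total 7.11% of all genes were called in either direction. None of the members was higher at an unadjusted p under 0.05 or by DESeq2. All 10 had a negative fitted log2 fold change, with a median of -0.23, beside a median of -0.01 and a share of 51.2% negative over all genes tested. The test was edgeR's quasi-likelihood test of genotype alone, without pairing of replicates, with Benjamini-Hochberg adjustment over all genes. In bulk tissue, fewer cells of a type and less RNA per cell cannot be told apart.

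**Figure D1:**
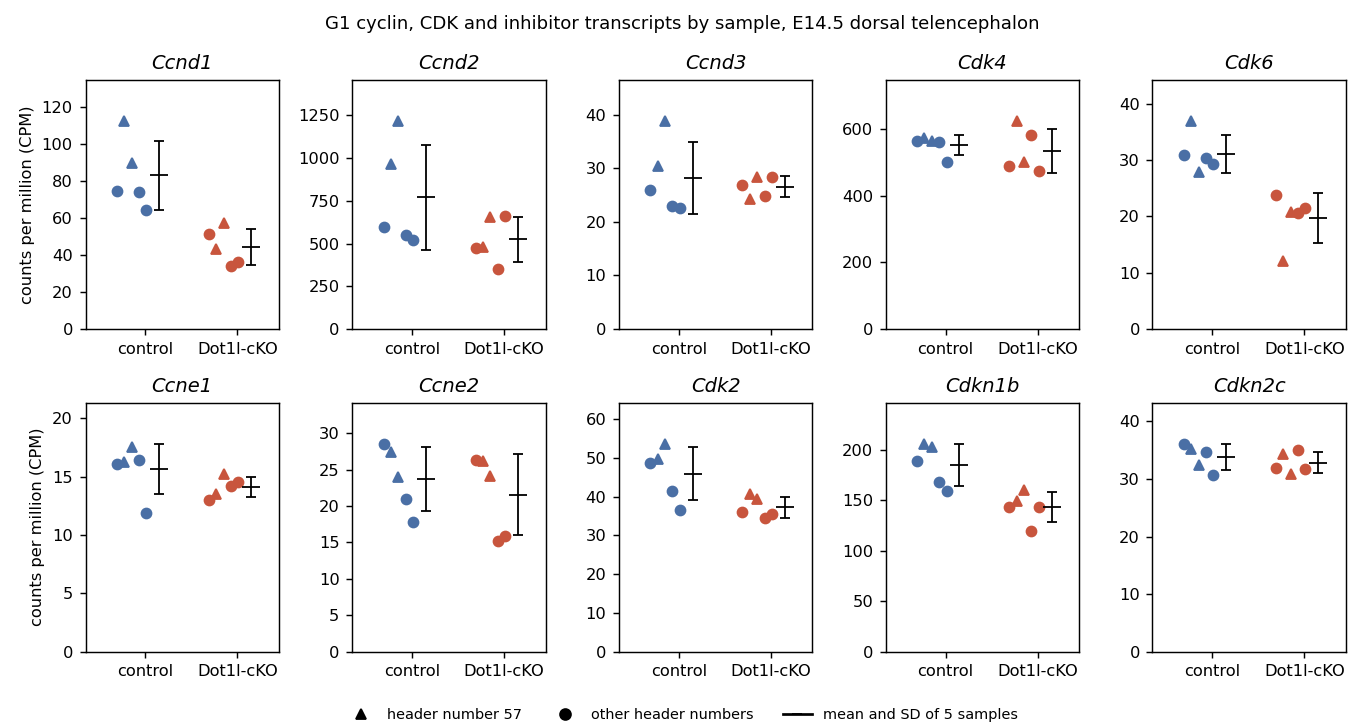
CPM (vertical axes, starting at 0) of the 10 members in each of the 5 control and 5 Dot1l-cKO samples, with the mean and SD of each group in black. Triangles are samples with header number 57, and the groups of Ccnd1 and of Cdk6 do not overlap.

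Ccnd1 encodes cyclin D1, the D-type cyclin classically induced by mitogens. The gene lies on chromosome 7 at 144929931 to 144939925, minus strand (GRCm38). In control samples 1 to 5 it measured 74.8, 112.2, 89.8, 73.8 and 64.1 CPM. In Dot1l-cKO samples 1 to 5 it measured 51.2, 43.0, 57.2, 34.0 and 36.1 CPM. Every Dot1l-cKO sample lay below every control, a separation in the lower direction that 2.17% of all genes tested showed. The means were 82.9 ± 18.8 and 44.3 ± 9.84 CPM (SD, n = 5 each), so the level in Dot1l-cKO was 0.534 of that in controls. The log2 fold change was -0.90 ± 0.18 (SE, 95% confidence interval -1.29 to -0.52, edgeR adjusted p = 0.0106).

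The decrease of Ccnd1 was seen on both sides of the header-number split. Mean log2 CPM differed by -1.02 in the samples of header number 57 and by -0.83 in the rest. It was called whichever sample was left out, with adjusted p from 0.00901 to 0.0286. Control replicate 3 had the fewest ventral marker counts of the controls, at 54.7 CPM, less than in Dot1l-cKO replicates 1 and 4 at 81.7 and 76.9 CPM. Its Ccnd1 level was 89.8 CPM, and those 2 samples had 51.2 and 34.0 CPM. Control replicate 3 has header number 57 and those 2 samples do not. The controls of header number 57 lay above the other controls in Ccnd1, so this comparison does not separate ventral content from header number. The part of ventral cells and of microglia in the difference was not tested.

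Ccnd2 encodes cyclin D2, and per unit of transcript length it was the most abundant D-type cyclin. It lies on chromosome 6 at 127125162 to 127152193, minus strand. Control samples 1 to 5 gave 596.6, 965.9, 1215, 552.5 and 522.6 CPM. Dot1l-cKO samples 1 to 5 gave 473.6, 480.5, 655.8, 352.7 and 658.3 CPM. The groups overlapped, and the controls of header number 57 stood above the other controls. The log2 fold change of -0.56 ± 0.26 (SE, 95% confidence interval -1.12 to 0.01) did not pass the test (edgeR adjusted p = 0.251). Control replicate 3, the sample with the highest Ccnd2, was the control with the lowest summed ventral markers and neuron markers (4238 CPM). It was the highest control in summed markers of choroid plexus and hem (609.1 CPM) and of meningeal fibroblasts (852.3 CPM). The same held for erythroid cells (1895 CPM) and for endothelial cells and pericytes (293.0 CPM). The part of these marker differences in its Ccnd2 level was not tested.

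The genotype difference of Ccnd2 was -0.95 within header number 57 and -0.22 within the others. Ccnd3, which encodes cyclin D3, measured 22.6 to 38.8 CPM in controls and 24.2 to 28.4 CPM in Dot1l-cKO. Its log2 fold change was -0.09 ± 0.14 (SE, edgeR adjusted p = 0.787), and the difference was -0.39 within header number 57 but 0.16 within the others. In an interaction fit, added after these values were seen, the difference between the 2 header-number classes was -0.77 for Ccnd2 and -0.55 for Ccnd3. Neither passed after adjustment over all genes (edgeR adjusted p = 0.728 for both). No gene of the 17039 passed that interaction test, with 1071 at an unadjusted p under 0.05. A processed pseudogene, Ccnd3-ps, matches Ccnd3 at 96.3% identity over 881 bases, which makes counts of Ccnd3 uncertain.

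Within the D-type cyclins, counts per length placed Ccnd2 first, Ccnd1 second and Ccnd3 last in both genotypes. Their shares of the D-cyclin total were 78.9% ± 3.36, 17.9% ± 3.11 and 3.23% ± 0.426 in controls (SD, n = 5). In Dot1l-cKO they were 81.3% ± 3.26, 14.1% ± 2.76 and 4.58% ± 0.851. The log2 ratio of Ccnd1 to Ccnd2 counts was -3.16 ± 0.343 in controls and -3.55 ± 0.373 in Dot1l-cKO (SD, n = 5). The difference of -0.40 did not pass (exact two-sided permutation test, p = 0.127, adjusted over 4 ratios p = 0.169), and 4 of 5 replicate pairs were lower. Control replicate 3 stood apart in this ratio, at -3.76. Without it the difference was -0.55 with an adjusted permutation p = 0.0317.

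Cdk4 and Cdk6 encode the kinases that D-type cyclins activate, and they differed from each other in their response. Cdk4 measured 564.9, 573.6, 563.0, 561.5 and 499.7 CPM in control samples 1 to 5. It measured 489.9, 622.8, 500.1, 581.0 and 474.0 CPM in Dot1l-cKO samples 1 to 5. The groups lay across one another, and the log2 fold change was -0.05 ± 0.09 (SE, 95% confidence interval -0.24 to 0.14, edgeR adjusted p = 0.799).

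Cdk6 lies on chromosome 5 at 3341485 to 3531008, plus strand. It measured 30.9, 36.9, 27.9, 30.4 and 29.4 CPM in control samples 1 to 5. In Dot1l-cKO samples 1 to 5 it measured 23.8, 12, 20.8, 20.5 and 21.5 CPM. Each Dot1l-cKO sample was below each control, and Dot1l-cKO replicate 2 was far below the other 4. That library also had the lowest Dot1l level. Among the other 4, the highest Dot1l was in replicate 5 and the highest Cdk6 in replicate 1. A link between the Dot1l and Cdk6 levels was not tested. The log2 fold change was -0.66 ± 0.16 (SE, 95% confidence interval -1.01 to -0.31, edgeR adjusted p = 0.0301), a level of 0.634 of the control.

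Without Dot1l-cKO replicate 2 the log2 fold change of Cdk6 was -0.52 and the call stayed. The call was lost when any of control replicates 1, 2 or 4 or Dot1l-cKO replicates 3 or 4 was left out, with adjusted p from 0.0578 to 0.0742. With the replicate number as a block, the log2 fold change was -0.68 and adjusted p = 0.0575. The difference was -1.02 within header number 57 and -0.46 within the others. A pseudogene, Gm16505, matches Cdk6 at 95.5% identity over 289 bases, which adds some uncertainty to counts of Cdk6. The longest Cdk6 transcript has 11525 bases, so the match covers a small part of it.

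The log2 ratio of Cdk4 to Cdk6 counts tested that contrast within each library. It was 4.16 ± 0.141 in controls and 4.79 ± 0.537 in Dot1l-cKO (SD, n = 5). The groups did not overlap, at 3.96 to 4.33 and 4.36 to 5.70, and the ratio was higher in 5 of 5 replicate pairs. The difference of 0.63 gave p = 0.00794 (exact two-sided permutation test), the smallest that 5 against 5 allows, and p = 0.0317 adjusted over 4 ratios. Its within-class differences were 1.00 in header number 57 and 0.39 in the others. Without Dot1l-cKO replicate 2 the difference was 0.40. Leaving out that sample, or any other except replicate 3 of either group, gave an adjusted permutation p = 0.0635, the smallest that 4 against 5 allows for a ratio that alone reaches the minimum. Per length, Cdk6 formed 1.29% ± 0.126 of the Cdk4 and Cdk6 total in controls and 0.875% ± 0.265 in Dot1l-cKO (SD, n = 5).

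Bases upstream of the RefSeq start of both kinases are shown because the pair differed in response while both held an E-box, the letters CACGTG, which MYC-family factors can bind. The sequences are from RefSeq (GRCm38.p6), which gave promoters for 7 of the 10 members. E-boxes are in capitals. For Cdk4 the 250 bases before the start are shown except the last, which is 1 annotated exon base. For Cdk6 the stretch is the first 89 of the 250 bases, ending before an annotated exon, and the bases from there to the start, of which 57 are exonic, are not shown. Cdk4 is given for chr10:127063285-127063533 and Cdk6 for chr5:3343643-3343731, both plus strand.
Cdk4: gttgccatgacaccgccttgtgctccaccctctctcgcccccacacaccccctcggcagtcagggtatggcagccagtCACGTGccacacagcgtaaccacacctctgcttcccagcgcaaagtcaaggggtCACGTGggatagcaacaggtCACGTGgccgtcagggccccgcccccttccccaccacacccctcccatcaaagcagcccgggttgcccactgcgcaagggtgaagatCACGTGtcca
Cdk6: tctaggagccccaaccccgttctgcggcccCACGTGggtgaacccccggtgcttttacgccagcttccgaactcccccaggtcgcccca
The 250 bases before the start of Cdk4 held 4 E-boxes and those of Cdk6 held 1. Of 32851 mouse promoters of that length, 6.02% held at least 1 and 0.0213% held 4 or more. The letters read the same on both strands, and a match is not a binding site.

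**Figure D2:**
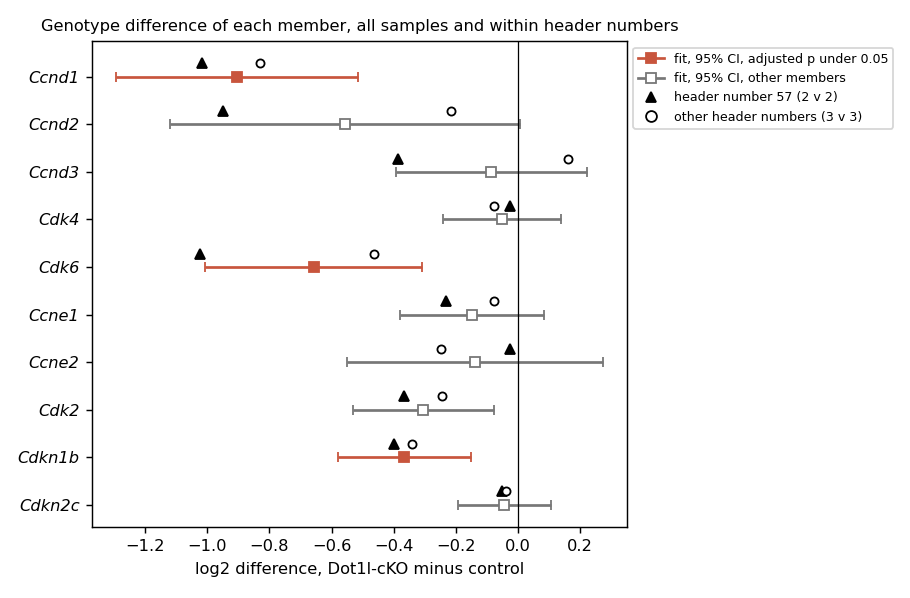
Difference in log2 expression between Dot1l-cKO and control (horizontal axis) for each member, as the fitted value with its 95% confidence interval and as differences in mean log2 CPM within header number 57 and within the other header numbers. The intervals of Ccnd1, Cdk6, Cdkn1b and Cdk2 lie below 0, and Ccnd3 changes sign between the header-number classes.

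Ccne1 and Ccne2 encode the E-type cyclins, which act after the D-type cyclins and are themselves E2F targets. Ccne1 measured 16.1, 16.3, 17.5, 16.4 and 11.9 CPM in control samples 1 to 5. It measured 13.0, 13.5, 15.2, 14.2 and 14.6 CPM in Dot1l-cKO samples 1 to 5. Control replicate 5 was below all the Dot1l-cKO samples, and the other 4 controls were above them. The log2 fold change was -0.15 ± 0.11 (SE, 95% confidence interval -0.38 to 0.08, edgeR adjusted p = 0.483).

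Ccne2 measured 28.5, 27.4, 24.0, 20.9 and 17.8 CPM in control samples 1 to 5. It measured 26.3, 26.2, 24.1, 15.2 and 15.9 CPM in Dot1l-cKO samples 1 to 5. Replicates 4 and 5 were the lowest of both groups, and this spread within groups was larger than the difference between them (log2 fold change -0.14 ± 0.19 SE, 95% confidence interval -0.55 to 0.27, edgeR adjusted p = 0.736). The log2 ratio of Ccne1 to Ccne2 was -0.59 ± 0.198 in controls and -0.57 ± 0.440 in Dot1l-cKO (SD, n = 5, exact two-sided permutation p = 0.921, adjusted p = 0.921). Its difference was -0.21 within header number 57 and 0.17 within the others.

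Cdk2 encodes the partner kinase of the E-type cyclins and lies on chromosome 10 at 128697939 to 128705031, minus strand. Control samples 1 to 5 gave 48.5, 49.6, 53.5, 41.5 and 36.4 CPM. Dot1l-cKO samples 1 to 5 gave 36.1, 40.8, 39.3, 34.4 and 35.5 CPM. Every pair of equal replicate number was lower in Dot1l-cKO, but the groups overlapped through the low control replicate 5. The log2 fold change of -0.30 ± 0.10 (SE, 95% confidence interval -0.53 to -0.08) did not pass (edgeR adjusted p = 0.115). It passed with the replicate number as a block (-0.29, edgeR adjusted p = 0.0456) and with the header number as a block (-0.29, edgeR adjusted p = 0.0296). DESeq2 also called it (-0.33, DESeq2 adjusted p = 0.0367). These were 3 of 7 alternative fits on all 10 samples. Of the 10 fits without 1 sample, 1 called it, the fit without control replicate 5 (-0.38, edgeR adjusted p = 0.0278). The differences within header number 57 and within the others were -0.37 and -0.25.

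Among the 7 members with a promoter, Cdk2 alone held an E2F-type octamer, at position -140 from its start, on the opposite strand. The octamers searched on both strands were TTTCCCGC, TTTCGCGC, TTTGCCGC and TTTGGCGC, and 1.86% of all promoters of the same length held at least 1.

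Cdkn1b encodes the KIP1 inhibitor, which binds cyclin E with CDK2 and is known for holding cells in G1 and favouring cell cycle exit in the cortex. It lies on chromosome 6 at 134920401 to 134925513, plus strand. In control samples 1 to 5 it measured 188.4, 205.6, 202.4, 167.6 and 159.1 CPM. In Dot1l-cKO samples 1 to 5 it measured 143.6, 149.0, 160.5, 119.8 and 143.4 CPM. The groups touched only where Dot1l-cKO replicate 3 exceeded control replicate 5, and all 5 replicate pairs were lower in Dot1l-cKO. The log2 fold change was -0.37 ± 0.10 (SE, 95% confidence interval -0.58 to -0.15, edgeR adjusted p = 0.0452), a level of 0.776 of the control.

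The decrease of Cdkn1b was -0.40 within header number 57 and -0.34 within the others. Its call sat close to the threshold and was lost on leaving out any of 8 samples in turn, with adjusted p up to 0.112, and was kept without control replicate 5 and without Dot1l-cKO replicate 3. It was also lost with a term for embryo sex (adjusted p = 0.0751) and without the filter on low counts (adjusted p = 0.0535). Cdkn2c, which encodes an inhibitor of CDK4 and CDK6, measured 30.7 to 36.0 CPM in controls and 30.9 to 35.1 CPM in Dot1l-cKO. These ranges lay over each other, with a log2 fold change of -0.04 ± 0.07 (SE, 95% confidence interval -0.19 to 0.11, edgeR adjusted p = 0.779).

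The log2 ratio of Cdkn1b to Cdkn2c was 2.44 ± 0.148 in controls and 2.12 ± 0.220 in Dot1l-cKO (SD, n = 5). It was lower in 5 of 5 replicate pairs, although the groups overlapped between 2.27 and 2.38. The difference of -0.32 gave p = 0.0238 (exact two-sided permutation test, adjusted over 4 ratios p = 0.0476). The differences within header number 57 and within the others were -0.35 and -0.30. The adjusted p rose above 0.05 whichever sample was left out, to at most 0.0952, except without Dot1l-cKO replicate 3.

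The promoter of Cdkn1b is shown as the other called member with a RefSeq entry, for chr6:134920151-134920400 on the plus strand, with the CCAAT letters in capitals.
Cdkn1b: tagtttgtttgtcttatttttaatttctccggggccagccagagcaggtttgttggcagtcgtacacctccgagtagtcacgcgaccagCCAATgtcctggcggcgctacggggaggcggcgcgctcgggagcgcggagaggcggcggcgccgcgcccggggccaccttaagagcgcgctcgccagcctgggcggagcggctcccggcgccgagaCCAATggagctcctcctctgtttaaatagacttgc
It held 2 CCAAT matches, where 33.8% of all promoters of that length held at least 1 on either strand, so the letters are common. It held no E-box and no E2F-type octamer. The GC box, the letters GGGCGG, was also searched in the members' promoters. Cdkn1b held 1, at position -61, where 32.7% of all promoters held at least 1.

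**Figure D3:**
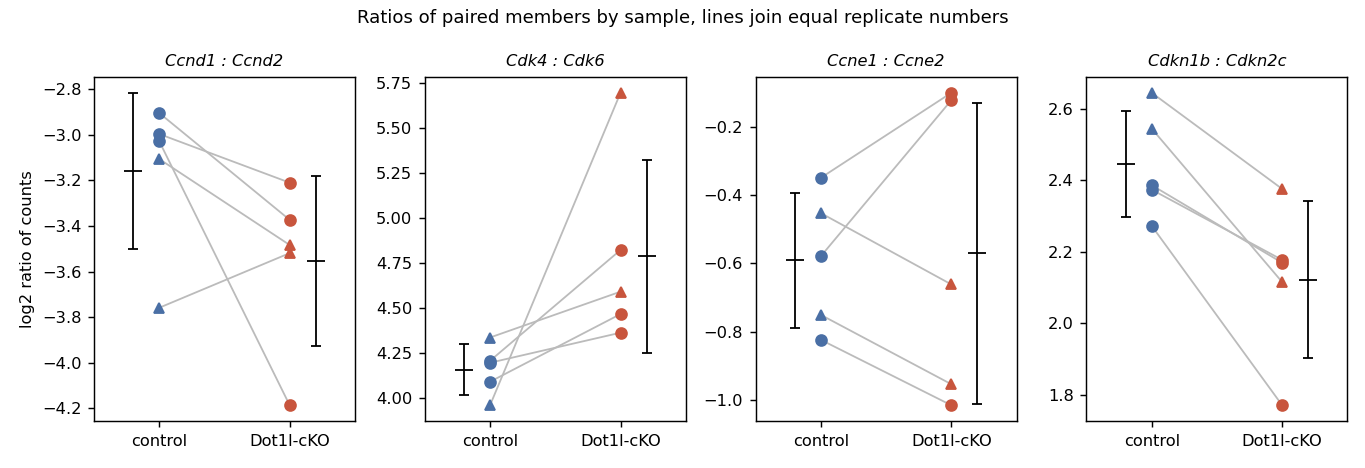
Log2 ratio of counts of the 4 member pairs (vertical axes) in each control and Dot1l-cKO sample, with lines joining equal replicate numbers, triangles for header number 57, and the mean and SD of each group in black. The lines of Cdk4 to Cdk6 all go up and those of Cdkn1b to Cdkn2c all go down, while the other pairs are mixed.

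The order of abundance was read from CPM per kilobase of exon. In controls Cdk4 was highest at 170.1 ± 9.21, then Ccnd2 at 81.9 ± 32.6, Cdkn1b at 40.6 ± 4.54, Ccnd1 at 17.6 ± 3.98 and Cdkn2c at 12.6 ± 0.824 (SD, n = 5). The ranges of these 5 did not overlap with their neighbours. Cdk2, Ccne2 and Ccne1 followed at 7.38 ± 1.10, 6.79 ± 1.27 and 5.88 ± 0.809 with overlapping ranges. Ccnd3 at 3.21 ± 0.764 and Cdk6 at 2.22 ± 0.247 were the lowest, and their ranges overlapped too.

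The abundance order in Dot1l-cKO differed in the middle. Ccnd1 fell to 9.41 ± 2.09 CPM per kilobase and stood below Cdkn2c at 12.2 ± 0.679, with overlapping ranges. Cdk6 was again last, at 1.41 ± 0.322. With the longest annotated transcript as the length, Cdk4, Ccnd2, Cdkn1b and Ccnd1 kept the first 4 places in controls and Cdk6 the last. Cdk2, at 14.1 CPM per kilobase in place of 7.38, then stood above Cdkn2c at 13.7, with overlapping ranges. Ccnd3 was at 7.29 in place of 3.21, and its range overlapped that of Ccne1.

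Genes whose pattern over the 10 samples was most like that of a called member were found among 10413 genes by the root-mean-square difference of centred log2 CPM. For Ccnd1 they were Gm29260 at 0.183, Skida1 at 0.204 and Dleu2 at 0.212. For Cdk6 they were Nr2e1 at 0.101, Asap1 at 0.112 and Zc3hav1l at 0.129. For Cdkn1b they were Zc3h12c at 0.0662, Alg13 at 0.0689 and Cdc14a at 0.0690.

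Other genes around G1 were read from 6 lists of 70 genes, of which 68 passed the filter. They are called pathway genes here, and 2 of the lists hold S-phase genes and S, G2 and M cyclins with Cdk1. Of these 68, 8 were called lower and 1 higher, beside 1.44% and 5.67% of all genes tested. The lists were chosen with earlier results of these data known, so these counts do not test whether the pathway moved more than other genes. Cdkn2a and Cdkn2b, INK4-type inhibitors, were below the filter, at 0.0222 and 0.0611 CPM in controls and 0.0560 and 0.171 CPM in Dot1l-cKO. The other 4 inhibitors tested had positive log2 fold changes with a median of 0.03, and none was called. Cdkn1c, another KIP-type inhibitor, stood at 111.9 ± 41.8 and 113.5 ± 19.3 CPM, and Cdkn1a at 2.50 ± 0.780 and 3.03 ± 0.458 CPM (SD, n = 5).

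Among 13 genes of the RB family and of E2F and DP factors, 12 had a negative log2 fold change, with a median of -0.24, and 2 were called lower. E2f2, an activator E2F, went from 19.9 ± 3.23 to 13.3 ± 1.48 CPM (SD, n = 5, log2 fold change -0.58 ± 0.12 SE, edgeR adjusted p = 0.0166). Tfdp2, which encodes a DP partner of E2F factors, had a log2 fold change of -0.27 ± 0.06 (SE, edgeR adjusted p = 0.0217). Rb1, the substrate of the G1 kinases, stood at 80.4 ± 10.7 and 74.6 ± 11.2 CPM and was not called.

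Of 10 genes that activate G1 CDKs or turn over cyclins, 2 were called lower, and the median was -0.11. Cdc25a, the phosphatase that removes the inhibitory phosphate from CDK2, had a log2 fold change of -0.41 ± 0.08 (SE, edgeR adjusted p = 0.0146). Fbxw7, the ubiquitin ligase subunit that marks cyclin E for destruction, was also lower (-0.30 ± 0.06 SE, edgeR adjusted p = 0.0169). Skp2, which marks the KIP1 protein for destruction, stood at 74.0 ± 10.2 and 59.6 ± 5.72 CPM (SD, n = 5) and was not called (edgeR adjusted p = 0.105).

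Of 17 genes upstream of G1 entry, 1 was called lower and 1 higher, with a median of -0.13. Mycn, the MYC-family gene prominent in neural progenitors, went from 120.4 ± 12.1 to 93.6 ± 4.84 CPM (SD, n = 5), a log2 fold change of -0.36 ± 0.08 (SE, edgeR adjusted p = 0.0161). Id1, a BMP-responsive inhibitor of differentiation, rose from 6.82 ± 1.90 to 11.0 ± 1.30 CPM (SD, n = 5), a log2 fold change of 0.68 ± 0.17 (SE, edgeR adjusted p = 0.0346).

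All 16 E2F-regulated S-phase genes had a negative log2 fold change, with a median of -0.24, but 2 were called. These were Rrm2, a ribonucleotide reductase subunit (-0.54 ± 0.14 SE, edgeR adjusted p = 0.0444), and Mybl2, a transcription factor of dividing cells (-0.45 ± 0.12 SE, edgeR adjusted p = 0.0417). In the list of S, G2 and M cyclins with Cdk1, 8 of 8 were negative with a median of -0.10, and Wee1, the kinase that restrains CDK1, was the called gene (-0.44 ± 0.11 SE, edgeR adjusted p = 0.0345, but 0.0554 with the replicate number as a block). Cdk1 itself had a log2 fold change of -0.07 (edgeR adjusted p = 0.779). With the replicate number as a block, 14 of the 68 were called lower and 2 higher, beside 2.91% and 6.51% of all genes. The 9 calls of the fit without the block were repeated without 1 sample at a time: E2f2, Cdc25a and Mycn were called in 10 of 10 fits, Fbxw7 in 9, Tfdp2 in 6, Rrm2 and Id1 in 2, and Mybl2 and Wee1 in 1. The range of adjusted p over these fits was 0.00633 to 0.0932 for Wee1 and 0.00884 to 0.104 for Mybl2. With a term for embryo sex the calls of Id1, Rrm2, Mybl2 and Wee1 were lost, at adjusted p from 0.0518 to 0.0754.

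**Figure D4:**
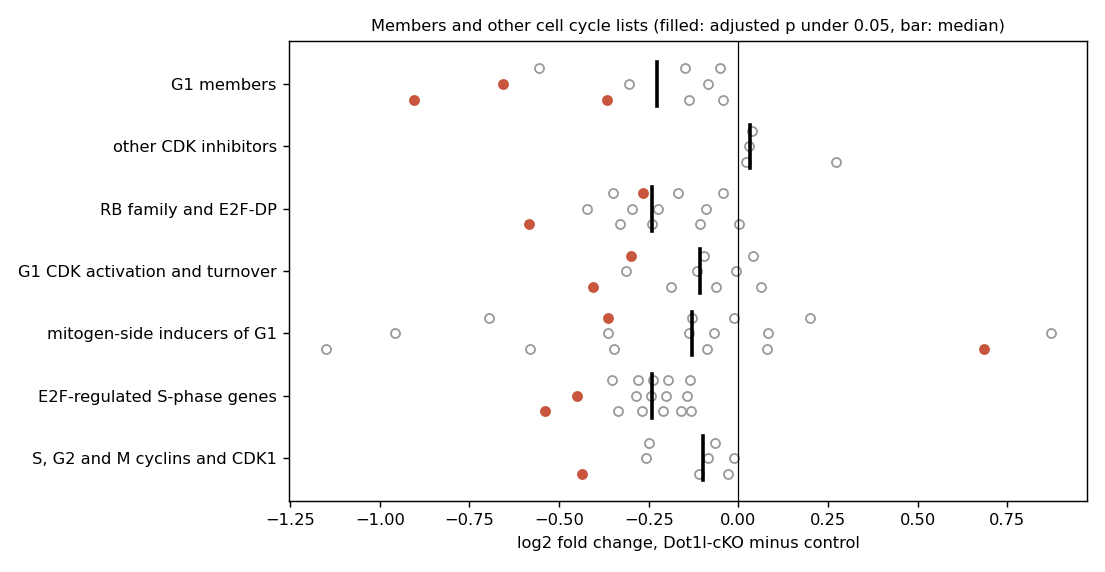
Log2 fold change between Dot1l-cKO and control (horizontal axis) of each tested gene in the member list and the 6 other cell cycle lists, with filled points for an adjusted p under 0.05 and a bar at each list's median. The medians run from -0.24 to 0.03, and the points left of 0 are unfilled in most cases.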

How the data were processed

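Per the labels, the authors made stranded, ribosomal-RNA-depleted libraries from E14.5 dorsal telencephalon. Per the submitters' processing notes and the study's methods, reads were trimmed with Trim Galore 0.2.8, mapped to mm10 with TopHat2 2.0.9 and counted per Ensembl gene with HTSeq 0.6.0 in its reverse-stranded mode, so genes on opposite strands were counted apart. The deposited counts are whole reads per gene, with no molecular identifiers. The deposited normalised tables hold the signal of those counts after division by a DESeq2 1.6.1 size factor per sample.

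Of 43629 identifiers, 42548 were matched to a GENCODE M21 symbol. The counts were tested with edgeR 4.0.16 (R 4.3.3): filterByExpr, TMM, quasi-likelihood test of genotype over all 10 samples, Benjamini-Hochberg adjustment, threshold 0.05. The SE is the log2 fold change over the square root of F. CPM are counts per 1000000 of TMM-scaled library size. Permutation tests used scipy 1.17.1. Alternatives were DESeq2 1.42.0, limma 3.58.1 on log2(normalised count + 1), other size factors, no filter, blocks, a sex term from Y-linked counts, header-number subsets and leaving out each sample. The edgeR steps were also run on simulated counts as a check of the code. Those counts held no header-number classes, so that run does not vouch for the calls given here. Total counts of 54202349 to 66556034 limit counting error, and intervals cover the spread between samples.

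Replicate numbers were taken as pairing samples only in the replicate block, the sign-flip test and the counts of replicate pairs. The main edgeR test and the permutation tests of ratios did not use the pairing. Deviations from the group means correlated at 0.131 to 0.597 for equal numbers across genes, and pairs shared header numbers, while the labels name no litter. No 2 replicates of a group agreed within sampling noise. Named were all members, Dot1l, 1 further gene not reported here, at most 4 called genes per direction of each pathway list with the smallest adjusted p, pathway genes below the filter, and 3 nearest patterns (mean log2 CPM of at least 3) per called member. Others were named after their values were seen. Members and lists were chosen with earlier results of these data known.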

Additional observations from a re-analysis of the deposited data

Results flagged for a closer look

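In 4 of the 28 sets of 5 values examined (10 members and 4 ratios in both groups), the lowest or highest sample lay further from its nearest neighbour than Dixon's critical value allows, as a share of the range of the set. Chance alone gives about 1 in 20. For Cdk4 in controls this share was 0.845, with control replicate 5 at 499.7 CPM beside a median of 563.0 CPM. Control replicate 5 was also apart for Ccne1 (0.779), at 11.9 CPM beside a median of 16.3 CPM. For Cdk6 in Dot1l-cKO the share was 0.783, with replicate 2 at 12 CPM beside a median of 20.8 CPM. For the log2 ratio of Ccnd1 to Ccnd2 in controls it was 0.764, with control replicate 3 at -3.76 beside a median of -3.03.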

How the results depend on the processing

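Across the alternatives the log2 fold change of Ccnd1, Cdk6 and Cdkn1b stayed negative in every fit. With the replicate block 3 members were called lower, as without it, but not the same 3: Cdk2 was gained and Cdk6 was lost. The header-number block and DESeq2 each called 4 members lower, the 3 of the main fit and Cdk2. The sex term and the fit without the filter each called 2 lower. Without the filter, 0.707% of 28447 genes were called lower and 2.71% higher. Of the pathway genes, the replicate block called 14 lower and 2 higher (8 and 1 without it), and with the header-number block 19 were lower and 0 higher. DESeq2 called 19 lower and 2 higher, and the sex term 5 and 0. Over all genes, the shares called lower and higher were 2.91% and 6.51% with the replicate block, 3.5% and 7.17% with the header-number block, 3.43% and 6.98% by DESeq2, and 1.07% and 4.52% with the sex term. In the 4 samples of header number 57 no member and no pathway gene was called (0 in each direction). Over all genes 0% were called lower and 0.00581% higher there, so the lack of calls is not particular to these genes. Counts at an unadjusted p under 0.05 in that fit have no share over all genes beside them and are not given. In the other 6 samples 2 members, Ccnd1 and Cdk6, were called lower and 0 higher. There 2 pathway genes were called lower and 2 higher. The shares of all genes in that fit were 0.896% and 3.41%. At an adjusted p under 0.01 there were 0 members and 0 pathway genes in either direction, with no share over all genes given at that cut.

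Leaving out 1 sample gave 1 to 4 members called lower, the lowest without control replicates 1, 2 or 4 or Dot1l-cKO replicate 4 and the highest without control replicate 5. Pathway genes called lower then ran from 3 (without control replicate 4) to 15 (without control replicate 5), and called higher from 0 to 2. Over all genes in these fits, the share called lower ran from 0.723% to 1.99% and the share called higher from 3.58% to 6.26%. The ratio differences ran from -0.55 to -0.24 for Ccnd1 to Ccnd2, 0.40 to 0.74 for Cdk4 to Cdk6 and -0.39 to -0.23 for Cdkn1b to Cdkn2c. With 4 against 5 samples the smallest permutation p is 0.0159, so a ratio that alone reaches it cannot pass after adjustment over 4. The paired sign-flip test, a replicate block for ratios, cannot go below p = 0.0625 with 5 pairs (exact test), the value reached by Cdk4 to Cdk6 and by Cdkn1b to Cdkn2c. Without control replicate 3 the log2 fold change of Ccnd3 was 0.06. The cause of these changes was not tested. Levels per length depend on the annotation, and the precision of all values on 5 samples a group.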
